A study of Mus musculus with 2 samples.

Results

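The genes described here are 10 members of fibroblast growth factor (FGF) signalling: the receptors *Fgfr1*, *Fgfr2* and *Fgfr3*, the Sprouty inhibitors *Spry1*, *Spry2* and *Spry4*, the PEA3-type ETS transcription factors *Etv1*, *Etv4* and *Etv5*, and the phosphatase *Dusp6*. They were taken by gene symbol from the 32285 genes listed for each library, and each symbol matched a unique gene. Their levels played no part in the choice of the cells or of the cell classes.

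FGF ligands bind receptor tyrosine kinases at the cell surface, which switch on the RAS-MAPK cascade through adaptor proteins. The cascade turns on its own inhibitors: Sprouty proteins block signalling upstream of or at RAF, and DUSP6 removes phosphate from ERK in the cytoplasm. *Etv1*, *Etv4* and *Etv5* are transcribed in response to FGF signalling in many tissues and are commonly read as its targets. In the developing cortex, FGF receptors of radial glial cells (RGCs) are known for their part in patterning and in the upkeep of the progenitor pool.

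The data come from single-cell RNA sequencing of E16.5 mouse cortex (embryonic day 16.5). There were 2 libraries, both of WT genotype and titled *EomesDot*, with no treated or mutant group. It is not stated whether 1 embryo or a pool gave each library, and the numbers 1 and 2 only name the libraries. All comparisons are therefore between cell classes of the same libraries (n = 2), and their p-values measure how well these libraries repeat each other. Cells were dissociated with papain and captured with a 10x Genomics kit that counts unique molecular identifiers (UMIs).

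Of 9049 and 13556 barcodes, 5966 and 10247 cells passed the limits of 1500 to 60000 UMIs and under 10% mitochondrial UMIs, with medians of 5706 and 4938 UMIs. Marker genes placed 72.7% and 69.1% of these cells in a class, and 16 classes had at least 20 cells in each library, from 22 to 2622 cells and from 129793 to 16443767 summed UMIs. Of 33 checks of a class against a marker that its gate did not use, 22 found the marker highest in its own class. The check was weakest for layer 5 neurons (*Nfib* ranked 6 of 16) and upper-layer neurons (*Lmo4* ranked 5 of 16). Newborn excitatory neurons (*Tiam2* 4 of 16, *Nrp1* 3 of 16) and intermediate progenitors (*Dll1* 3 of 16, *Sstr2* 2 of 16) followed. Neither of their markers was highest in its own class. *Drd1* of striatal neurons and *Calb2* of interneurons from the caudal ganglionic eminence were among those ranked 2 of 16. Class names therefore stand for gates ("RGC" is RGC-like), and between 16.1% and 34% of the UMIs of each member lay in cells without a class. The libraries shared 40 barcodes.

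RefSeq promoter windows of 300 bases were found for 7 of the 10 members, as 10 windows because *Fgfr3*, *Etv1* and *Etv5* have 2 starts. *Etv1*, *Etv4* and *Etv5* encode proteins that bind DNA around a GGAA core, so the windows were searched on both strands for AGGAAG and for CCGGAA, which share this core but cannot both match at the same place. AGGAAG or its reverse complement was in 4 of the 10 windows, beside 35.4% of all 32851 promoter windows of that length. CCGGAA was in 1 of the 10 (*Spry2*), beside 14.9% of all windows. These shares do not set the members apart. The sequences printed here are the upstream 250 bases and the first 10 transcribed bases of the members with AGGAAG at their first listed start, 5′ to 3′ on the strand of the gene, from RefSeq (GRCm38.p6), with the match in capitals. For *Dusp6* (chr10:99262981-99263240, plus strand) the match begins 210 bases before the start and is the reverse complement, for *Fgfr2* (chr7:130266799-130267058, minus strand) 208 bases before it, with a second match among the transcribed bases not shown, and for *Etv1* (chr12:38779832-38780091, plus strand) 2 overlapping matches begin 8 bases before it.
Dusp6: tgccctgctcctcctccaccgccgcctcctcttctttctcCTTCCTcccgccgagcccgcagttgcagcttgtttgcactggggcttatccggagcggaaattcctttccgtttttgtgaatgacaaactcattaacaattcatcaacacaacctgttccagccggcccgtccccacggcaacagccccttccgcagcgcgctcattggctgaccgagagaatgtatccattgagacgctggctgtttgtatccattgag
Fgfr2: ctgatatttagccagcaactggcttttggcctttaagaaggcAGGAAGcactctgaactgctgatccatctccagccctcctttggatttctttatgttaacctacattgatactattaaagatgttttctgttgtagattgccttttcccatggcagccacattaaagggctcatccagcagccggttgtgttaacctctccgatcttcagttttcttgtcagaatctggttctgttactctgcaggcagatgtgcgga
Etv1: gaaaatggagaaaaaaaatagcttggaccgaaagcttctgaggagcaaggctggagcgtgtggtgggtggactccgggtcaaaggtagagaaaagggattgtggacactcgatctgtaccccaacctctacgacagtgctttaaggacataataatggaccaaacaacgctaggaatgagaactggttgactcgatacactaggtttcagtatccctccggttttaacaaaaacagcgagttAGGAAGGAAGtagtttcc

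On the GRCm38.p6 assembly, which is the mm10 build named by the labels, the genes lie at chr8:25518759-25575718 (*Fgfr1*), chr7:130162451-130266808 (*Fgfr2*), chr5:33721724-33737068 (*Fgfr3*), chr3:37639947-37644599 (*Spry1*), chr14:105891947-105896819 (*Spry2*), chr18:38586247-38601347 (*Spry4*), chr12:38780082-38870483 (*Etv1*), chr11:101769747-101785310 (*Etv4*), chr16:22381313-22439570 (*Etv5*) and chr10:99263231-99267489 (*Dusp6*). No 2 members share a chromosome.

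Levels are given as UMIs of a gene per 1000000 UMIs summed over a class in a library (CPM). They compare a gene between classes. They do not compare genes with each other, because capture and priming differ between transcripts, and whether intronic reads were counted is not given in the sources used here. Over all cells that passed the limits, the members were measured from 21089 UMIs for *Fgfr2*, 5528 for *Etv1* and 5093 for *Fgfr1* down to 395 for *Etv4*, 337 for *Spry1* and 250 for *Spry4*. As a floor for free RNA, the 52 cells of the erythroid gate (hemoglobin-rich red cell precursors) held 6 member UMIs among 292792. These were 5 of *Fgfr2* and 1 of *Fgfr1*, and the other 8 members were at 0, which allows up to 10.2 CPM for each.

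Among the receptors, *Fgfr1* was highest in RGCs, at 132 CPM in library 1 and 141 CPM in library 2, and in fibroblasts, at 172 and 94.4 CPM. These neighbours in the order overlapped. Newborn excitatory neurons followed at 80.3 CPM ± 4.37 (SD, n = 2) and oligodendrocyte precursor cells (OPCs) at 65.5 CPM ± 1.16. The lowest were MGE interneurons at 15.7 CPM ± 5.20, microglia at 16.6 CPM ± 3.06, CGE interneurons at 18.1 CPM ± 0.851 and Cajal-Retzius cells, with 1 UMI in library 1 and 0 in library 2.

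*Fgfr2* was the broadest member, with a 4.76-fold range between the class means. RGCs stood at 331 and 333 CPM, MGE interneurons at 352 and 282 CPM and Cajal-Retzius cells at 439 and 214 CPM, and these 3 classes overlapped. Mural cells (36.8 and 103 CPM) and microglia (72.3 and 71.0 CPM) were the lowest, and every class was above the 10.5 and 20.2 CPM of the erythroid cells.

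*Fgfr3* was the most restricted receptor. RGCs had 46.2 and 37.0 CPM and OPCs 51.8 and 27.5 CPM, with no gap between them. The third class, cycling GABAergic cells, had 12.4 and 6.26 CPM, and intermediate progenitor cells (IPCs) had 7.75 and 9.39 CPM. RGCs made up 3.45% and 3.17% of the cells but held 34.1% and 21.6% of the *Fgfr3* UMIs. No *Fgfr3* UMI was seen in Cajal-Retzius cells or microglia.

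The Sprouty genes were all high in OPCs but differed in their other leading classes. *Spry2* was highest in OPCs (93.8 and 64.1 CPM) and next in RGCs (31.8 and 51.0 CPM), and the libraries did not overlap, although the difference did not pass the test described for OPCs (adjusted p = 0.14 with edgeR). *Spry1* was high in OPCs (84.1 and 43.5 CPM), mural cells (61.4 and 39.7 CPM) and fibroblasts (62.3 and 29.5 CPM), which overlapped, and stood at 2.65 and 3.28 CPM in RGCs, from 5 and 7 UMIs. *Spry4* was high in mural cells (49.1 and 77.0 CPM) and OPCs (48.5 and 75.5 CPM), and no other class passed 7.80 CPM on average. In RGCs it rested on 10 and 4 UMIs. Layer 5 neurons held no UMI of *Spry1* or *Spry4* among 832933 and 1194707 UMIs.

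Of the ETS factors, *Etv1* was highest in CGE interneurons (182 and 197 CPM), followed by cycling GABAergic cells (171 and 166 CPM), OPCs (188 and 126 CPM), MGE interneurons (131 and 136 CPM), microglia (86.7 and 144 CPM) and RGCs (95.5 and 96.4 CPM). CGE interneurons did not overlap with cycling GABAergic cells but did with OPCs, whose level in library 1 was above theirs. With stricter gates the highest class was the cycling GABAergic cells. From the cycling GABAergic cells to the RGCs, each class overlapped the next. Upper-layer neurons, at 10.2 and 11.8 CPM, and Cajal-Retzius cells, at 7.70 and 12.2 CPM, were the lowest. *Etv4* was highest in OPCs (45.3 and 27.5 CPM), and RGCs (21.2 and 15.0 CPM) overlapped with mural cells (8.18 and 21.0 CPM). *Etv5* formed a top group of microglia (72.3 and 98.1 CPM), OPCs (71.2 and 91.5 CPM) and RGCs (65.3 and 85.7 CPM), whose members overlapped. All other classes had 25.4 CPM or less on average.

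*Dusp6* followed another order. Microglia (57.8 and 134 CPM), endothelial cells (38.5 and 61.3 CPM), mural cells (40.9 and 51.3 CPM), fibroblasts (24.9 and 44.8 CPM) and OPCs (19.4 and 32.0 CPM) led, each overlapping the next. Among neurons, layer 6 had 14.1 and 13.2 CPM and layer 5 had 7.20 and 10.0 CPM. RGCs had 2.65 and 3.74 CPM, from 5 and 8 UMIs, and IPCs 1.16 CPM ± 0.484.

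The class with the highest level was not fixed for every gene. Removing the cells of the highest doublet scores left 41 of 61 OPCs, 54 of 85 fibroblasts and 50 of 78 microglia in library 2. It left 319 of 325 RGCs there. In library 1 it left 37 of 39, 27 of 31 and 24 of 26 of these classes, beside 200 of 206 RGCs. Without the removed cells, the highest class stayed the same for 6 of 10 members. It passed from RGCs to fibroblasts for *Fgfr1*, from RGCs to OPCs for *Fgfr3*, from mural cells to OPCs for *Spry4* and from microglia to OPCs for *Etv5*, all pairs that overlapped in the main result. With stricter gates it passed from CGE interneurons to cycling GABAergic cells for *Etv1*, a pair that did not overlap in the main result, and from mural cells to OPCs for *Spry4*. In cells with at least 3000 UMIs it passed from RGCs to OPCs for *Fgfr3*. In these cells OPCs were named highest for *Etv5* and endothelial cells for *Dusp6*, in place of microglia. Microglia kept only 14 such cells in library 1, below the minimum number of cells set for a class. The change of class for *Etv5* and *Dusp6* therefore does not show that their level in microglia fell.

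**Figure D1:**
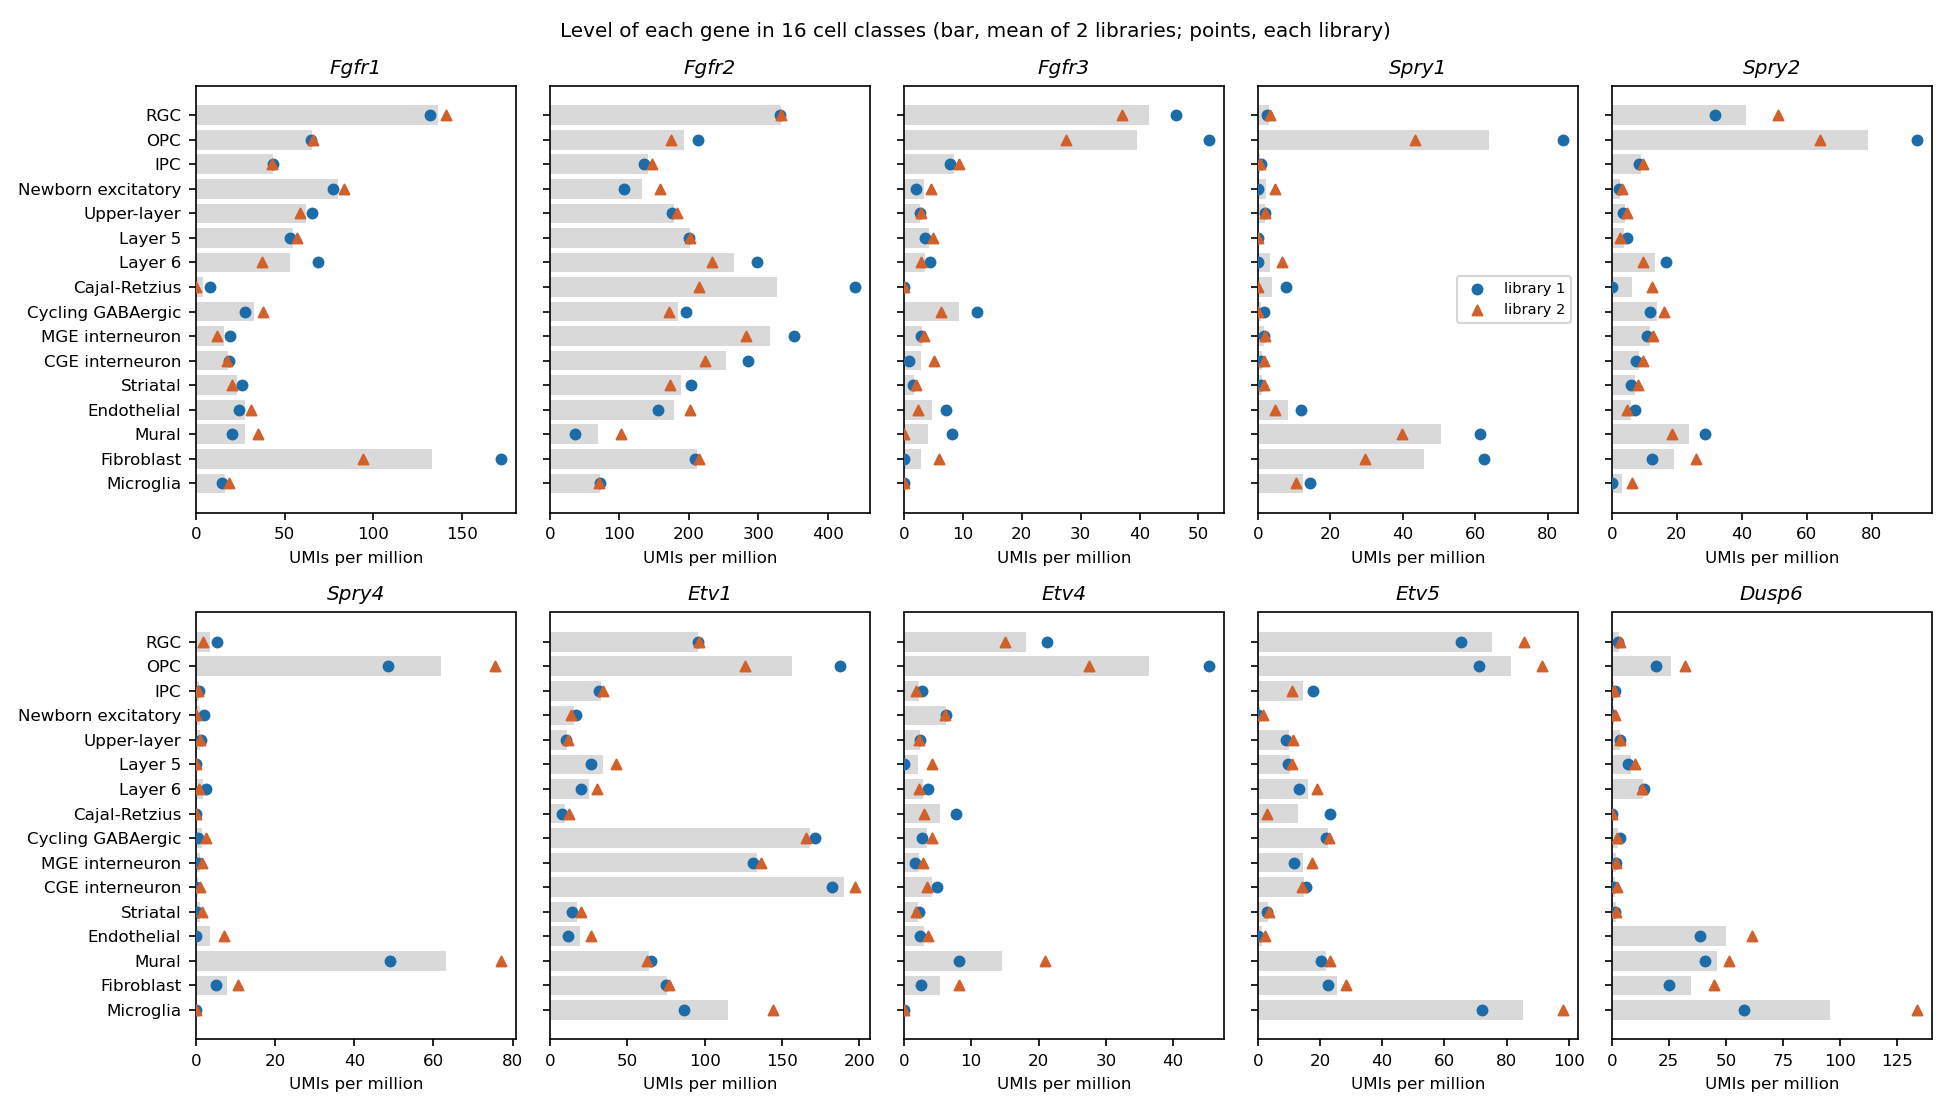
Horizontal axes give the level of each gene in UMIs per 1000000 and vertical axes the 16 cell classes; grey bars are means of 2 libraries, circles library 1 and triangles library 2. *Fgfr2* is present in all classes, *Fgfr3* is high in RGCs and OPCs, *Spry4* in mural cells and OPCs, and *Dusp6* in microglia, vascular cells, fibroblasts and OPCs.

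To follow the genes along the excitatory lineage, RGCs were compared with excitatory neurons, taken as the mean of upper-layer, layer 5 and layer 6 neurons on the log scale of the fit. All 10 members passed the filter on low counts. With edgeR's quasi-likelihood test and Benjamini-Hochberg adjustment over 15565 genes, 8 of 10 members were higher in RGCs and 1 was lower, where 29.9% of all genes tested were called higher and 25.4% lower. The median log2 fold change was 2.33 for the members and 0.03 for all genes tested. *Fgfr3* was 10.9-fold higher in RGCs (log2 fold change 3.44 ± 0.30 (SE), adjusted p = 3.30e-12). *Fgfr1* was 2.32-fold higher (1.21 ± 0.14, adjusted p = 1.02e-09). *Fgfr2* was 1.49-fold higher (0.58 ± 0.12, adjusted p = 8.68e-05). The receptors thus differed in the size of the step, with the library ratios of *Fgfr3* at 3.51 and 3.15 and those of *Fgfr2* at 0.55 and 0.61 on the log2 scale.

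Among the feedback genes, *Spry2* was higher in RGCs by 2.79 ± 0.25 on the log2 scale (adjusted p = 5.44e-12), with 31.8 and 51.0 CPM in RGCs beside 8.32 and 5.58 CPM in excitatory neurons. *Etv5* was higher by 2.58 ± 0.17 (adjusted p = 1.15e-15), *Etv4* by 2.73 ± 0.36 (adjusted p = 2.89e-08) and *Etv1* by 2.08 ± 0.14 (adjusted p = 1.98e-15). *Spry4* passed the test (2.87 ± 0.99, adjusted p = 0.014) on 14 UMIs in RGCs, with ratios of 2.07 and 1.26 in the libraries alone. *Dusp6* went the other way, lower in RGCs by a log2 fold change of -1.29 ± 0.42 (adjusted p = 0.0087), with 8.36 and 8.93 CPM in excitatory neurons as the mean of the 3 layer classes. These classes were unlike: upper-layer neurons, the most numerous, had 3.79 and 3.53 CPM and overlapped with RGCs, while layer 5 and layer 6 were above RGCs in each library. The layer classes were not tested singly against RGCs. *Spry1* did not pass (1.93 ± 1.11, adjusted p = 0.14) but did with stricter gates (adjusted p = 0.031).

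RGCs were also compared with IPCs, the *Eomes*-expressing progenitors that RGCs give rise to. These results share the RGC sums with the previous ones. With edgeR, 8 of 10 members were higher in RGCs and 0 were lower, where 18.2% of all genes were called higher and 15.4% lower. At an unadjusted p under 0.05, 10 were higher and 0 lower, and DESeq2 called 9 higher and 0 lower. *Etv4* showed a log2 fold change of 2.92 ± 0.40 (adjusted p = 2.53e-07), with 21.2 and 15.0 CPM in RGCs and 2.75 and 1.84 CPM in IPCs. *Etv5* (2.38 ± 0.19, adjusted p = 4.43e-13), *Fgfr3* (2.21 ± 0.31, adjusted p = 4.13e-07) and *Spry2* (2.15 ± 0.27, adjusted p = 4.36e-08) were more than 4-fold higher. *Fgfr1* (1.62 ± 0.16), *Etv1* (1.49 ± 0.15) and *Fgfr2* (1.19 ± 0.15) were 2.28-fold to 3.08-fold higher. *Spry4* passed (adjusted p = 0.032) on 14 UMIs in RGCs and 6 in IPCs, a ratio of 5.16 with an exact 95% counting interval of 1.86 to 16.4. Its ratio in library 2 alone was 1.09 on the log2 scale, and it had too few counts to be tested when RGCs and IPCs alone were fitted. *Spry1* (12 and 6 UMIs, adjusted p = 0.079) and *Dusp6* (13 and 10 UMIs, adjusted p = 0.073) did not pass. With stricter gates both passed (adjusted p = 0.0066 and 0.038), and *Spry1* also passed with DESeq2 (adjusted p = 0.048) and with no count filter (adjusted p = 0.035).

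Between IPCs and excitatory neurons the picture was divided. Of the 10 members, 2 were higher in IPCs and 3 lower, where 26% of all genes were called higher and 22.1% lower. With DESeq2 44.7% of the called genes were higher in IPCs instead of 54.1%. *Fgfr3* (1.23 ± 0.36, adjusted p = 0.0045) and *Etv1* (0.59 ± 0.15, adjusted p = 0.0013) were higher in IPCs. *Dusp6* was lower (-2.73 ± 0.42, adjusted p = 1.03e-06), as were *Fgfr2* (-0.61 ± 0.12, adjusted p = 8.81e-05) and *Fgfr1* (-0.41 ± 0.15, adjusted p = 0.020). *Fgfr1* and *Fgfr2* were thus at their lowest in IPCs among these 3 steps, at 43.3 CPM ± 0.642 and 142 CPM ± 7.99. Newborn excitatory neurons, which are not among these steps, had 133 CPM ± 37.2 of *Fgfr2*, overlapping with IPCs, and 80.3 CPM ± 4.37 of *Fgfr1*. Layer 6 alone overlapped with IPCs for *Fgfr1*, at 68.7 and 37.5 CPM beside 43.8 and 42.9 CPM. *Spry2* (adjusted p = 0.080) and *Etv5* (adjusted p = 0.46) did not pass.

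**Figure D2:**
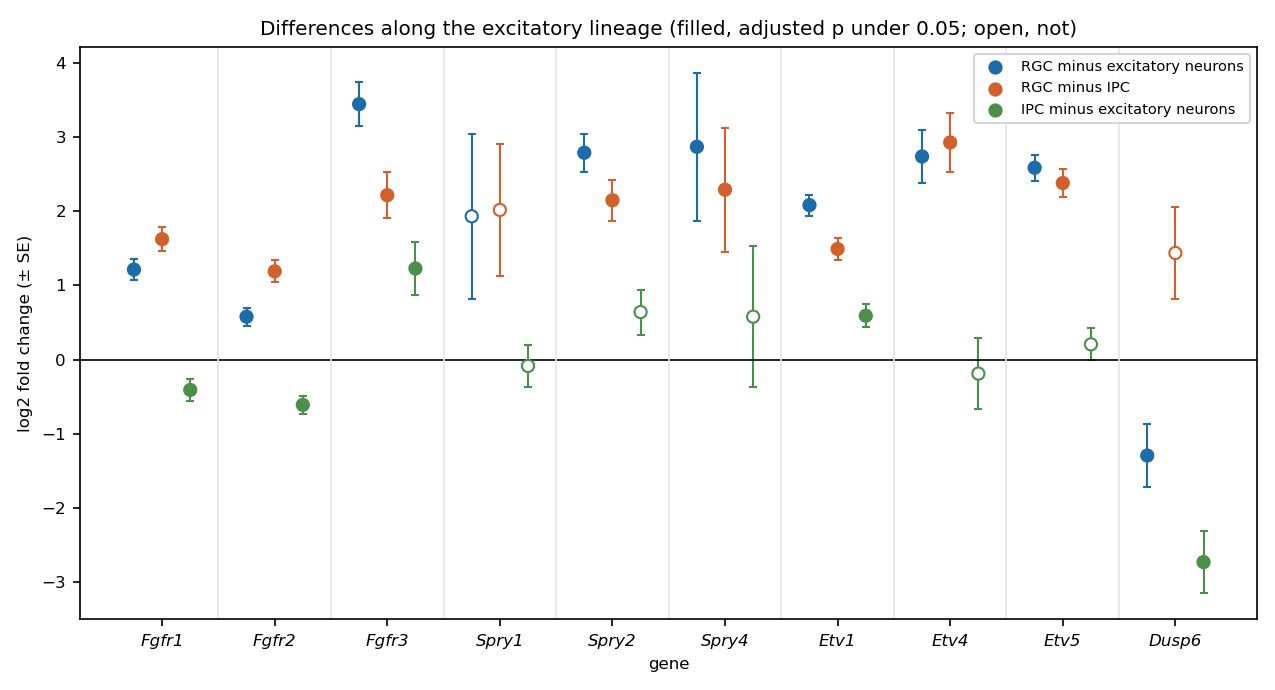
The horizontal axis lists the 10 genes and the vertical axis gives log2 fold changes with their SE from the fit on 2 libraries; filled points have an adjusted p under 0.05. *Fgfr3*, *Spry2*, *Spry4*, *Etv4* and *Etv5* lie above 2 for both RGC comparisons, and *Dusp6* lies below 0 for both comparisons with excitatory neurons.

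Within RGCs, cells with at least 2 of 4 cycle markers (99 and 141 cells) were compared with cells that had none (63 and 116 cells). The cycling cells held 1055378 and 1068653 UMIs and the others 474820 and 646214, so the cycling cells were deeper per cell. The part of depth in this split was not tested. *Spry1*, *Spry4* and *Dusp6* had too few counts to be tested, so 7 members entered. Of these, 1 was higher and 1 lower in cycling RGCs, where 9.84% of 9215 genes were called higher and 7.78% lower. *Etv5* had 86.2 and 106 CPM in cycling cells and 40.0 and 60.4 CPM in the others (log2 fold change 0.91 ± 0.23, adjusted p = 0.00072). *Fgfr2* had 312 and 275 CPM against 390 and 410 CPM (-0.47 ± 0.13, adjusted p = 0.0023). Both calls were lost with DESeq2 (adjusted p = 0.58 and 0.56), at log2 fold changes of 0.94 and -0.46, and DESeq2 called 293 genes where edgeR called 1624, with 76.1% instead of 55.8% of them higher. The other 5 members did not pass, with adjusted p-values from 0.11 (*Etv1*) to 0.85 (*Etv4*).

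OPCs express FGF receptors and are known to respond to FGF2. The OPC gate asked for at least 2 of *Olig1*, *Olig2*, *Pdgfra*, *Sox10*, *Cspg4* and *Gpr17*, and took cells that also met the RGC gate. Its check markers *Lhfpl3* and *Cspg5* were highest in it. So was *Ednrb*, a check marker of RGCs, at 297 CPM beside 172 CPM in RGCs. Stricter gates left 22 and 31 of its 39 and 61 cells. Compared with RGCs, 3 of 10 members were higher in OPCs and 2 lower, where 4.32% of all genes were called higher and 6.1% lower. *Spry1* (4.16 ± 0.62, adjusted p = 5.54e-06), *Spry4* (3.92 ± 0.61, adjusted p = 1.32e-05) and *Dusp6* (2.83 ± 0.55, adjusted p = 0.00030) were higher. These are the 3 inhibitor genes that were scarce in RGCs, with 12, 14 and 13 UMIs there and 45, 48 and 20 in OPCs. Exact 95% counting intervals of the UMI ratios were 10.5 to 42.0, 10.0 to 36.3 and 3.92 to 18.1. *Fgfr1* (-1.23 ± 0.26, adjusted p = 0.00079) and *Fgfr2* (-0.97 ± 0.20, adjusted p = 0.00076) were lower in OPCs. *Fgfr3*, *Spry2*, *Etv1*, *Etv4* and *Etv5* did not pass, with log2 fold changes from -0.30 to 0.79. *Etv1* passed as higher in OPCs with DESeq2, in cells with at least 3000 UMIs and when OPCs and RGCs alone were fitted (adjusted p = 0.0082, 0.031 and 0.020), and *Spry2* when these alone were fitted (adjusted p = 0.031). The median over all genes in this comparison was -0.18, and the size factors of DESeq2 moved it up by 0.17; with them 65.2% of the called genes were higher in OPCs instead of 41.5%.

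In endothelial cells, 1 of 10 members was higher than in RGCs and 7 were lower, where 15.4% of all genes were called higher and 17.7% lower. The share of called genes that were higher in endothelial cells was 46.5%, and it turned to 53.8% with DESeq2, 52.4% when these classes alone were fitted and 51.6% in cells with at least 3000 UMIs. *Dusp6* was 16.7-fold higher (4.06 ± 0.42, adjusted p = 3.64e-10). *Etv5* showed the largest difference of a member in any comparison that passed, with 0 and 2 UMIs in endothelial cells and 123 and 183 UMIs in RGCs. The pooled ratio was 47.5 in favour of RGCs (exact 95% counting interval 13 to 394, adjusted p = 1.09e-10). *Fgfr1* (-2.14 ± 0.27), *Fgfr3* (-3.23 ± 0.59), *Spry2* (-2.80 ± 0.49), *Etv1* (-2.08 ± 0.28) and *Etv4* (-2.36 ± 0.66) were lower by more than 4-fold, and *Fgfr2* by 1.67-fold (-0.74 ± 0.18). The *Etv4* call rested on 4 UMIs in endothelial cells and was lost without the cells of the highest doublet scores, at a log2 fold change of -1.89 (adjusted p = 0.063). *Spry1* and *Spry4* did not pass.

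In fibroblasts, 2 of 10 members were higher than in RGCs and 3 were lower, where 14.9% of all genes were called higher and 16.4% lower. *Spry1* (3.97 ± 0.62, adjusted p = 2.63e-06) and *Dusp6* (3.64 ± 0.44, adjusted p = 2.34e-08) were higher. *Fgfr3* (-3.18 ± 0.59, adjusted p = 4.77e-05; 0 and 5 UMIs) and *Etv5* (-1.38 ± 0.28, adjusted p = 0.00014) were lower; in library 2 alone the *Fgfr3* ratio was -2.37. *Fgfr2* was also called lower (-0.47 ± 0.18, adjusted p = 0.041), a call that 5 of 7 alternatives did not keep, at log2 fold changes from -0.48 to -0.34. *Fgfr1* was close to its level in RGCs, at a log2 fold change of 0.01 ± 0.19, while the libraries lay on either side of 0 (0.49 and -0.38). With 1 more marker required in every gate, which gave 38 and 87 fibroblasts instead of 31 and 85, *Etv4* and *Spry2* also passed as lower (adjusted p = 0.017 and 0.019). The medians over all genes were -0.11 for endothelial cells and -0.10 for fibroblasts, and DESeq2 moved that of fibroblasts up by 0.12, with 58.1% instead of 47.7% of the called genes higher. The OPC, endothelial and fibroblast results share the RGC sums.

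**Figure D3:**
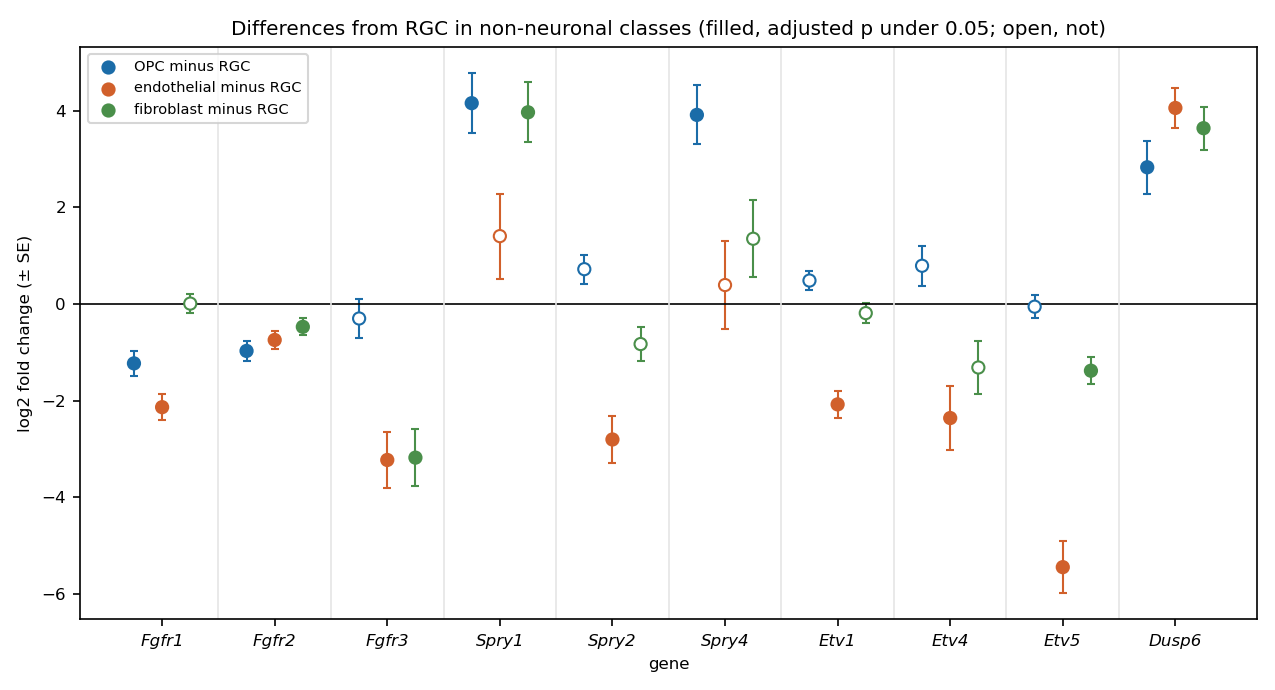
The horizontal axis lists the 10 genes and the vertical axis gives log2 fold changes against RGCs with their SE from the fit on 2 libraries; filled points have an adjusted p under 0.05. *Dusp6* lies above 0 in all 3 classes, *Spry1* is filled in OPCs and fibroblasts, and endothelial *Etv5* is the lowest point at -5.45.

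Cortical interneurons reach the cortex from the medial (MGE) and caudal (CGE) ganglionic eminences. Their mean was compared with excitatory neurons. Of the 10 members, 3 were higher in interneurons and 2 lower, where 16.9% of all genes were called higher and 15.5% lower. *Etv1* was 7.24-fold higher (2.86 ± 0.11, adjusted p = 8.59e-23), with 157 and 167 CPM beside 19.0 and 28.2 CPM. *Fgfr1* (-1.78 ± 0.17, adjusted p = 4.87e-11) and *Dusp6* (-2.09 ± 0.37, adjusted p = 2.74e-05) were lower. *Fgfr2* (0.38 ± 0.10, adjusted p = 0.0025) and *Spry2* (0.79 ± 0.29, adjusted p = 0.035) were called higher. In cells with at least 3000 UMIs the call of *Fgfr2* was lost at a smaller log2 fold change (0.17, adjusted p = 0.22). That of *Spry2* was lost at log2 fold changes near the main one, in cells with at least 3000 UMIs (0.74, adjusted p = 0.076), without the highest doublet scores (0.74, adjusted p = 0.073) and with stricter gates (0.83, adjusted p = 0.074).

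Striatal neurons, the other GABAergic neurons of the libraries, had 3 members lower than interneurons and 0 higher, also at an unadjusted p under 0.05 and with DESeq2, where 6.3% of all genes were called higher and 5.56% lower. *Etv1* (-3.18 ± 0.15, adjusted p = 8.15e-19) stood at 14.3 and 20.3 CPM in them. *Etv5* (-2.11 ± 0.33, adjusted p = 6.42e-06) stood at 3.08 and 3.59 CPM beside 13.5 and 15.7 CPM in interneurons. *Fgfr2* was lower by a log2 fold change of -0.59 ± 0.13 (adjusted p = 0.0010).

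*Etv1*, also known as *Er81*, marks layer 5 of the postnatal cortex. Layer 5 neurons were compared with the mean of upper-layer and layer 6 neurons, and *Etv1* was the 1 member called higher and 0 were called lower by edgeR or DESeq2 (1 at an unadjusted p under 0.05, *Spry1*), where 2.17% of all genes were called higher and 2.27% lower. It had 26.4 and 42.7 CPM in layer 5 and 15.2 and 21.0 CPM in the other layers (1.06 ± 0.24, adjusted p = 0.0039). That level was below those of both interneuron classes. The level in layer 5 overlapped with those of IPCs (32.0 and 34.5 CPM) and layer 6 (20.3 and 30.1 CPM). Fitted with the 3 layers alone, 1413 genes were called in this comparison instead of 691, of which 62.0% were higher instead of 48.8%, and with DESeq2 59.9% were higher.

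The other genes of the pathway were taken as lists. Of 18 genes of secreted FGF ligands, 6 had enough counts to be tested. *Fgf15*, the mouse counterpart of human FGF19, was highest in RGCs. It had 15.1 CPM ± 4.15 there, 0.507 CPM ± 0.265 in excitatory neurons (5.17 ± 0.54, adjusted p = 7.49e-10) and 1.11 CPM ± 0.159 in IPCs (3.62 ± 0.57, adjusted p = 4.73e-06). Its log2 ratios in the libraries alone were 4.18 and 4.11 against excitatory neurons and 3.64 and 2.86 against IPCs. It had no UMI in OPCs, endothelial cells or fibroblasts. Within RGCs it was lower in cycling cells (4.25 CPM ± 3.37) than in the others (29.9 CPM ± 3.62; -2.82 ± 0.52, adjusted p = 1.59e-06), on 9 and 34 UMIs and with log2 ratios of -1.89 and -3.44 in the libraries alone. Of the 6 ligand genes, 1 was higher and 2 were lower in RGCs than in excitatory neurons, beside 29.9% and 25.4% of all genes. *Fgf2* was highest in fibroblasts (22.4 and 24.8 CPM) and *Fgf1* was lower in IPCs than in excitatory neurons (-2.21 ± 0.43, adjusted p = 4.14e-05).

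Of the 4 other receptors and co-receptors, only *Fgfrl1*, a receptor without a kinase domain, was tested. It was highest in RGCs at 23.3 and 19.7 CPM, above excitatory neurons (5.66 ± 0.45, adjusted p = 2.27e-13) and IPCs (0.94 ± 0.28, adjusted p = 0.0083), and lower in endothelial cells than in RGCs (-4.53 ± 0.80, adjusted p = 1.96e-05), with 1 UMI in endothelial cells. Its log2 ratios in the libraries alone were 4.64 and 4.19 against excitatory neurons, and -5.69 and -3.51 in endothelial cells against RGCs. *Fgfr4* had 54 UMIs over the 16 classes, and *Kl* and *Klb*, the co-receptor genes of the endocrine FGFs, had 21 and 49.

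Among 19 genes of the adaptors and the cascade, 4 were higher and 7 lower in RGCs than in excitatory neurons, beside 29.9% higher and 25.4% lower among all genes, with median log2 fold changes of -0.23 for the list and 0.03 for all genes. *Gab1*, a docking adaptor, was higher in RGCs (1.74 ± 0.15, adjusted p = 1.27e-12), and *Map2k1*, which encodes MEK1, likewise (0.93 ± 0.21, adjusted p = 0.00031). *Grb2* (-1.08 ± 0.12, adjusted p = 1.15e-09) and *Mapk3*, which encodes ERK1 (-0.75 ± 0.15, adjusted p = 6.11e-05), were lower. Against IPCs, 2 were higher and 4 lower in RGCs, beside 18.2% and 15.4% of all genes. In endothelial cells 6 of the 19 adaptor and cascade genes were higher than in RGCs and 1 was lower, beside 15.4% and 17.7% of all genes, and *Mapk3* was among the higher (1.88 ± 0.20, adjusted p = 5.80e-10). The 4 genes of intracellular FGF homologous factors, which encode proteins that bind sodium channels rather than FGF receptors, included 2 lower in RGCs than in excitatory neurons, *Fgf14* (-1.79 ± 0.18, adjusted p = 1.24e-10) and *Fgf12* (-0.28 ± 0.11, adjusted p = 0.032). In endothelial cells 3 of the 4 were lower than in RGCs, beside 17.7% of all genes.

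Among 13 other feedback genes and targets, 10 were tested, and 5 were higher and 2 lower in RGCs than in excitatory neurons, beside 29.9% and 25.4% of all genes. The median log2 fold change of the 10 was 0.33. *Ccnd1*, which encodes cyclin D1 (3.30 ± 0.20, adjusted p = 6.54e-17), *Fos* (3.0 ± 0.38, adjusted p = 1.16e-08) and *Il17rd*, the FGF inhibitor Sef (2.98 ± 0.37, adjusted p = 9.30e-09), were higher. In library 1 alone the log2 ratio was 2.63 for *Ccnd1* and 2.23 for *Il17rd*. *Dusp4*, a nuclear MAPK phosphatase, was lower (-3.13 ± 0.35, adjusted p = 5.71e-10). Against IPCs, 6 of the 10 were higher and 1 lower, beside 18.2% and 15.4% of all genes, among them *Spred1* (1.30 ± 0.14, adjusted p = 7.10e-10) and *Dusp4* (-2.14 ± 0.40, adjusted p = 4.98e-05). In OPCs, *Ccnd1*, *Egr1* and *Spred3* were higher than in RGCs (1.39 ± 0.20, 1.77 ± 0.47 and 1.88 ± 0.52; adjusted p = 1.74e-06, 0.0084 and 0.013), and the log2 ratio of *Egr1* was 0.76 in library 1 and 2.54 in library 2. *Fos* and *Egr1* are also known to rise during tissue dissociation, and their part in these results was not tested.

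Seen per cell, each cell was thinned to 1500 UMIs so that depth did not set the share of cells with a UMI. *Fgfr2* was then seen in 38.9% ± 0.607 of RGCs, *Fgfr1* in 17.7% ± 5.06 and *Fgfr3* in 6.21% ± 1.23. Microglia, which served as the reference class, had 9.62% ± 2.72 for *Fgfr2*, 3.85% in each library for *Fgfr1* and 0% for *Fgfr3*; with 26 and 78 cells, a count of 0 allows up to 11.5% and 3.85% of cells with an *Fgfr3* UMI at this depth, which sets no limit on cells that express it. *Spry2* was seen in 7.84% ± 2.84 of RGCs and 10.5% ± 3.27 of OPCs, and *Etv5* in 12% ± 1.24 of RGCs and 16.7% ± 3.63 of microglia. *Spry1* was seen in 10.5% ± 5.31 of mural cells and 0.308% ± 0.435 of RGCs. Without thinning, at median depths of 8892.5 and 5753 UMIs in RGCs, the shares of RGCs were 80.7% for *Fgfr2*, 56.4% for *Fgfr1* and 24.5% for *Fgfr3*. In the same unthinned RGCs, 3.88% and 9.85% had no UMI of any receptor, and 17.5% and 8.92% had UMIs of all 3. The library with more cells lacking a receptor was the shallower.

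**Figure D4:**
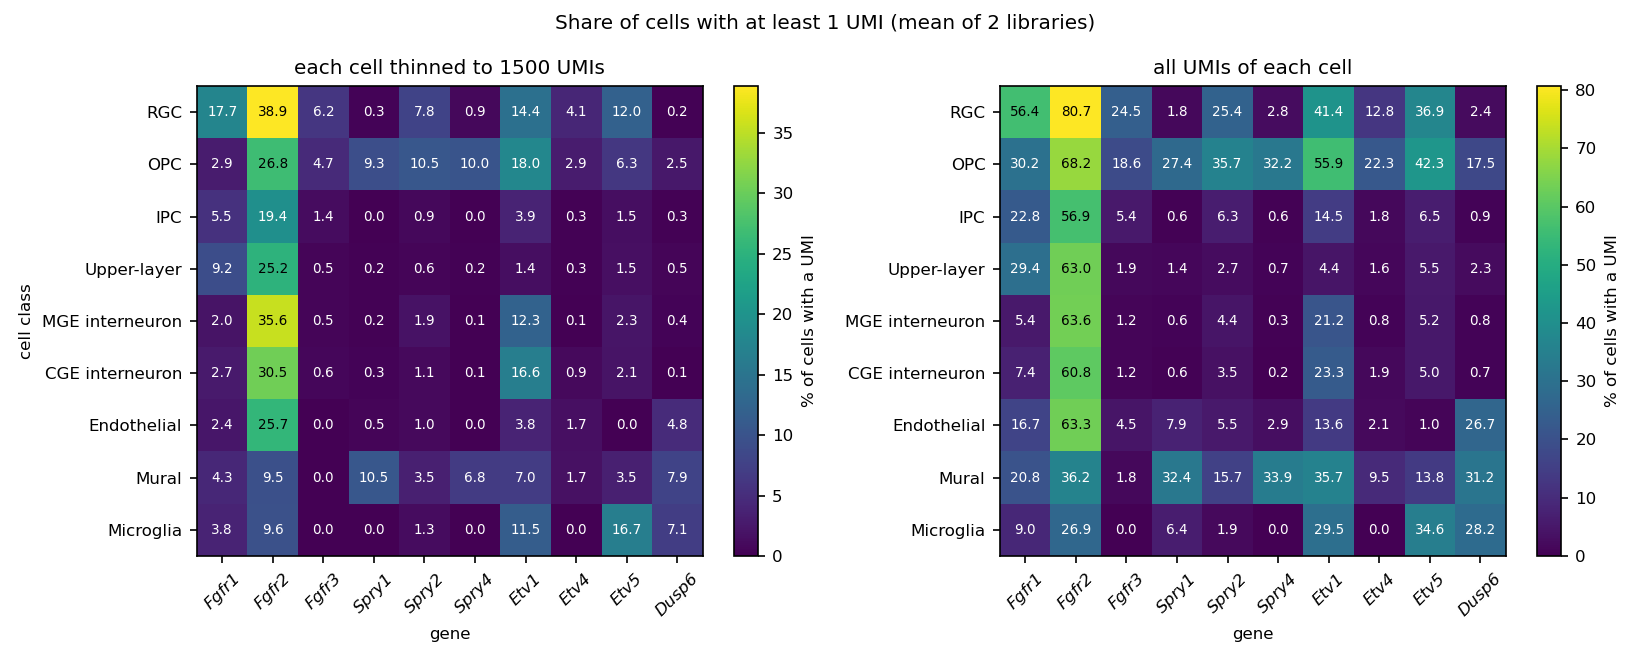
Rows are 9 cell classes, columns the 10 genes, and colours and printed numbers give the percentage of cells with at least 1 UMI as the mean of 2 libraries, after thinning to 1500 UMIs (left) and without thinning (right). In RGCs *Fgfr2*, *Fgfr1*, *Etv1* and *Etv5* are each above 10% after thinning, and *Spry1*, *Spry4* and *Dusp6* are below 1%.

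Across the 16 classes, likeness between members was measured by Pearson's r of log2(mean CPM + 1). It is a description over classes that share libraries, and low levels in many classes weigh on it. The 45 pairs had a median r of 0.30, with 6 pairs above 0.7 and 6 below 0. By Pearson's r *Spry1* and *Spry4* were the most alike (r = 0.81, Spearman's rho = 0.59), followed by *Spry2* and *Etv4* (0.79, 0.55), *Spry4* and *Etv4* (0.78, 0.61) and *Spry2* and *Spry4* (0.77, 0.68). The order differed by Spearman's rho, which was highest for *Etv1* and *Etv5* (rho = 0.72, r = 0.67). By r *Fgfr3* was most like *Spry2* (0.74, 0.55). *Spry1* and *Dusp6* had r = 0.71 (rho = 0.59). *Fgfr2* and *Dusp6* were the least alike (r = -0.53, rho = -0.29). Among all genes with at least 20 CPM in their highest class, the closest to *Fgfr3* were *Asrgl1* (r = 0.95), *Mrpl3* (0.94) and *Slc6a11* (0.91), and the closest to *Dusp6* were *Piezo1* (0.92), *Chmp3* (0.90) and *Tec* (0.90). *Spry4* was closest to *Afap1l2* (0.90), *Atp13a5* (0.87) and *Ccdc3* (0.86), which all had their highest level in mural cells. *Etv1* was closest to *Mob3b* (0.85), which like *Etv1* was highest in CGE interneurons. For *Spry2* these genes were *Jam3* (0.88), *Rrp8* (0.87) and *Metrn* (0.86), for *Etv4* *Tm7sf3* (0.91), *Cfap20* (0.88) and *5730480H06Rik* (0.87), and for *Spry1* *Hexim1* (0.89), *Il6st* (0.89) and *Tril* (0.88). *Fgfr1* was closest to *Hddc2* (0.88), *Alcam* (0.87) and *Rdh11* (0.86), *Fgfr2* to *Clcn3* (0.88), *Rgs9* (0.87) and *Gm10135* (0.87), and *Etv5* to *St13* (0.86), *Sp3os* (0.84) and *Prps2* (0.84).

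**Figure D5:**
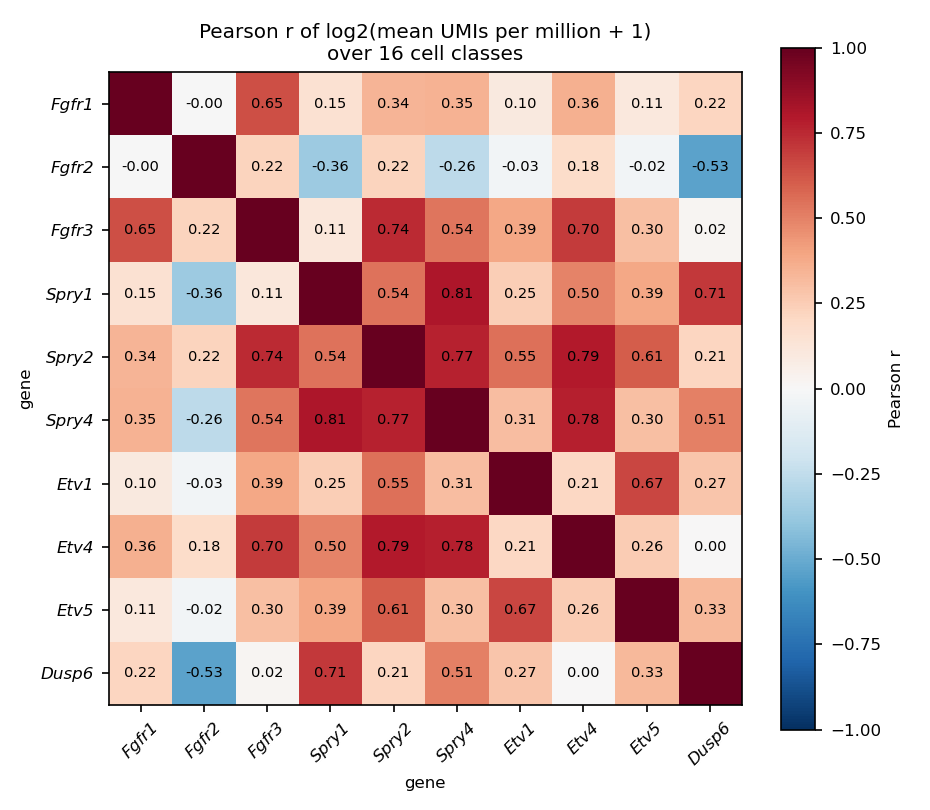
Rows and columns are the 10 genes and each cell gives Pearson's r of log2(mean UMIs per 1000000 + 1) over 16 cell classes, on a scale from -1 to 1. The *Spry2*, *Spry4* and *Etv4* block is above 0.7, and *Fgfr2* is below 0 with *Dusp6*.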

How the data were processed

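The deposited files hold, per library, raw UMI counts per gene and barcode, which the authors made with Cell Ranger (version 7.1.0 per the file headers, 7.0.0 per the labels; build mm10 per the labels) and did not normalize. Cells with 1500 to 60000 UMIs and under 10% mitochondrial UMIs were kept (medians of 5706 and 4938 UMIs) and assigned to classes by fixed marker gates that hold no member. A cell that met the gates of more than 1 group was left out (0.838% and 1.11%), except that a cell meeting both the OPC and the RGC gates counted as an OPC. Classes under 20 cells in a library were also left out. No cells were removed as doublets in the main result, because Scrublet (scanpy 1.11.5) marked 0 cells of library 1 and 251 cells of library 2 by its automatic threshold, so those 251 stayed in; removal by rank was an alternative. Counts were summed per library and class and compared in edgeR 4.0.16 under R 4.3.3. Sums were scaled by TMM, a gene needed 10 counts or more in 2 or more sums, the model held class and library and was tested by quasi-likelihood, and p-values were adjusted after Benjamini-Hochberg over every gene tested, with a call at an adjusted p under 0.05. The SE is the log2 fold change divided by the square root of F. Library ratios used a prior count of 1. The scripts were tested on simulated data. Intervals and floors (3 counts) cover counting error only. In sums over a class, fewer expressing cells and less RNA per cell cannot be told apart.

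The members and lists were chosen with earlier results of these data known. Named are the 10 members, and for each pathway list, up to 4 called genes ranked by fold change that reached 10 CPM in the class where they were higher and moved alike in the 2 libraries, and the 3 genes most like each member (20 CPM or more in their highest class); outside the lineage comparisons the lists are given mainly as counts. Ligand and co-receptor genes named for their highest class were chosen after their values were seen. Alternatives were DESeq2 1.42.0, no count filter, no library block, removal of the highest doublet scores (0.8% per 1000 barcodes), 1 more marker per gate (stricter gates, under which fibroblasts, mural cells and, in library 1, microglia gained cells), cells with at least 3000 UMIs, each library alone, and only the compared classes in the fit. Gene positions and promoters came from RefSeq tables of GRCm38.p6. The sequences of *Fgfr1*, *Spry4* and *Etv4* promoters were not used here.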

Additional observations from a re-analysis of the deposited data

How the results depend on the processing

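Counts of called members stayed within 1.5 times under all alternatives except 2. With cells of at least 3000 UMIs, 3 members were called between interneurons and excitatory neurons instead of 5, and DESeq2 called 0 members between cycling and non-cycling RGCs where edgeR called 2 (3 at an unadjusted p under 0.05). Without the highest doublet scores the leading class was kept by 6 of 10 members. The causes were not tested. Without the library block, 96 of the 97 values for single members kept their direction and side of the threshold, and 1 call was lost (*Fgfr2* in fibroblasts, log2 fold change -0.48). The replicate numbers name the libraries, and the block pairs the classes of a library.

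No called member changed direction. Among members that were not called, the direction turned as follows, in log2 fold changes. For IPCs against excitatory neurons these were *Spry1* 0.29 (only the compared classes), *Etv4* 0.48 (doublets removed) and *Spry4* -0.21 (DESeq2). For OPCs against RGCs these were *Fgfr3* 0.067 (doublets removed) and *Etv5* 0.11 (DESeq2), 0.34 (doublets removed) and 0.13 (only the compared classes). For fibroblasts against RGCs these were *Fgfr1* -0.057 (no filter) and -0.10 (stricter gates) and *Etv1* 0.076 (doublets removed). For interneurons these were *Etv4* -0.34 (at least 3000 UMIs) and *Spry4* -0.83 (stricter gates). For striatal neurons these were *Spry1* 0.31 (at least 3000 UMIs) and *Spry4* -0.42 (doublets removed). For layer 5 these were *Fgfr1* 0.17 (doublets removed), 0.069 (stricter gates) and 0.026 (only the compared classes) and *Etv4* 0.23 (stricter gates).

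With 1 library left out no test remained, so counts of calls were not computed and ratios were taken within a library. All 51 called values kept their direction in each library alone, and 13 moved by over 1.5 times. Beyond those already given, the moved log2 ratios in library 1 alone were -2.53 (*Fgfr3*), -2.0 (*Spry2*), -2.86 (*Etv1*) and -7.15 (*Etv5*) in endothelial cells, -6.66 (*Fgfr3*) in fibroblasts, -2.01 for *Dusp6* in IPCs against excitatory neurons, 2.89 for *Spry4* in OPCs, and 2.15 (*Spry2*) and 3.60 (*Etv4*) in RGCs against excitatory neurons. In library 2 alone they were -4.81 for endothelial *Etv5*, 3.20 for fibroblast *Spry1*, and 3.40 (*Spry1*) and 4.87 (*Spry4*) in OPCs.

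Precision was limited by UMIs: *Spry1*, *Spry4* and *Dusp6* rested on 12, 14 and 13 UMIs in RGCs. The size factors of DESeq2 moved the median of all genes by -0.12 between IPCs and excitatory neurons. Cycling cells could not be fitted with other classes, so that alternative was not run for them.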
